A study of Mus musculus with 22 samples.

Results

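Gene expression in sorted microglia of 3 Trem2 knockout samples, called KO set A, was compared with that of 3 wild-type (WT) samples fed Covi-Ox, called WT Covi-Ox. These are 6 of the 22 arrays of the study, grouped by their labels. The comparison was chosen with earlier results of these data known. The labels of KO set A contradict each other. The titles of its 3 arrays name cuprizone together with Covi-Ox, while their descriptions, source names and treatment fields name Covi-Ox alone. The reverse holds for 3 other knockout arrays, called KO set B, whose titles name Covi-Ox alone and whose other fields name both additives. Under the descriptions, KO set A against WT Covi-Ox is the effect of losing Trem2 on a Covi-Ox diet without cuprizone. Under the titles, KO set A also received cuprizone, and genotype and cuprizone then cannot be told apart. "KO set A" therefore stands for the arrays and not for a diet.

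The wider study measured WT and Trem2(-/-) mice fed normal chow (control) or 1 or both of the additives, in 8 groups. WT Covi-Ox is wild type at 0.1% Covi-Ox in the feed for 4 weeks. KO set A is Trem2(-/-) at 0.1% Covi-Ox for 4 weeks by its descriptions, with cuprizone at 0.2% added by its titles. WT control and KO control, used for comparison, hold 2 arrays each on normal chow, and KO set B holds 3. Covi-Ox here is Covi-ox T70, a mix of tocopherols, to which alpha tocopherol was added. The labels give no strain, sex, age or knockout design, nor whether the arrays of a group are separate animals or pools. The p-values therefore measure only the spread between arrays, which may be technical, and a difference of genetic background between the WT and knockout mice cannot be told apart from the loss of Trem2.

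Trem2 is a surface receptor of microglia, the macrophages of the brain, that binds lipids, lipoproteins and cell debris and signals through the adaptor Tyrobp (DAP12). Microglia that meet damaged myelin or plaques take up a disease-associated (DAM) profile, whose later genes, such as Clec7a, Itgax and Cst7, depend on Trem2 in several mouse models. Tocopherols are the vitamin E family of lipid antioxidants, and cuprizone, which binds copper, is fed to mice to cause loss of oligodendrocytes and myelin.

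Trem2 itself was measured first, as a check of the genotype labels. Its RMA intensity was 1291, 1022 and 1192 on the 3 WT Covi-Ox arrays and 99.5, 89.4 and 84.5 on the 3 arrays of KO set A. The groups were far apart, a difference of -3.68 ± 0.11 (log2, SE, 3 against 3 arrays), or 12.8-fold lower in KO set A (limma, adjusted p = 2.69e-14). KO control lay at 89.8 and 87.4 and WT control at 1294 and 1336. The remaining signal in the knockouts was above the array medians of 36.1 to 38.6, and the probe set may cover exons outside the deleted part. The partner Tyrobp was at 4118 to 4484 in WT Covi-Ox and 3972 to 4349 in KO set A, a difference of -0.046 ± 0.083 (limma, adjusted p = 0.999).

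The sorted cells carried microglial markers on all 6 arrays. All 15 measured microglia markers lay above the array median on every array, with a mean log2 level of 11.19 to 11.20 in WT Covi-Ox and 11.21 to 11.29 in KO set A. Single libraries were similarly reproducible in both groups, with a standard deviation of the log2 difference between replicate arrays of 0.231 to 0.267 over the genes tested. Because the samples are sorted populations measured in bulk, fewer cells of a type and less RNA per cell cannot be told apart in any value below.

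Of 11830 genes tested, 19 differed between KO set A and WT Covi-Ox at an adjusted p under 0.05, which is 0.161% of the genes tested. KO set A was higher in 8 (0.0676%) and lower in 11 (0.093%). At an unadjusted p under 0.05 the count was 580, or 4.9%, and the median difference of all genes was -0.003 (log2). Called means an adjusted p under 0.05 from limma throughout. Leaving out 1 of the 6 arrays at a time gave between 9 calls (without WT Covi-Ox replicate 3) and 18 (without KO set A replicate 2). The count was 11 without WT Covi-Ox replicate 1 or KO set A replicate 1, 12 without KO set A replicate 3 and 14 without WT Covi-Ox replicate 2. In all 6 of these fits 8 genes remained called, namely Trem2, G530011O06Rik, Mid1, Rasgrf2, Lrmda, Ctnnal1, Csmd3 and Nnt. The other 11 calls were lost in at least 1 of them. G530011O06Rik, a clone, and AI506816, an unnamed locus, are outside the naming rule and were singled out after their values were seen.

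**Figure D1:**
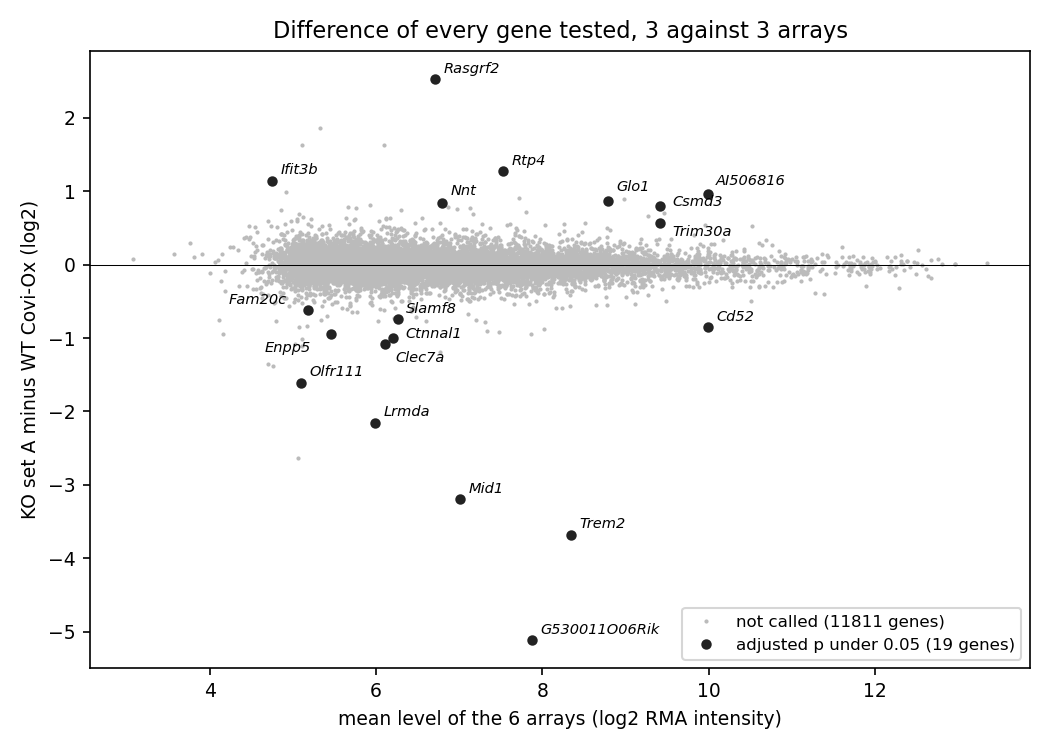
Difference between KO set A and WT Covi-Ox (log2, vertical axis) against the mean level of the 6 arrays (log2 RMA intensity, horizontal axis) for 11830 genes, with the 19 called genes as black points. Most genes lie close to 0, while Trem2 at -3.68, G530011O06Rik at -5.11, Mid1 at -3.19 and Rasgrf2 at 2.53 stand far from the rest.

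The 5 largest called differences, of G530011O06Rik, Trem2, Mid1, Rasgrf2 and Lrmda, were of genes also called between the genotypes on chow. The chow comparison uses other arrays, 2 of KO control and 2 of WT control. There 8 genes were called (0.0676% of those tested), and 6 of them were called in the same direction in KO set A against WT Covi-Ox: Trem2, G530011O06Rik, Mid1, Rasgrf2, Lrmda and Nnt. The other 2, Eif2s3y, a Y-linked gene, at -1.96 (limma, adjusted p = 0.0019), and Maml2 at -0.69 (limma, adjusted p = 0.0365), differed by 0.057 and -0.21 in KO set A and were not called there. The 6 shared genes are 31.6% of the 19 genes and 75% of the 8. Of the 19 genes, 16 had the same sign on chow, and 14 had it at an unadjusted p under 0.05. All these counts include Trem2, whose difference was given by the genotype. Over all genes 10.5% passed an unadjusted p under 0.05 on chow in either direction, and 44.2% were above 0. The share of all genes with the same sign in both comparisons was not counted. Both comparisons also use the same estimate of the spread, so their p-values are not independent.

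The intensity of G530011O06Rik was 1345, 1213 and 1610 in WT Covi-Ox and 28.3, 41.9 and 54.3 in KO set A, which fell by 5.11 ± 0.17 on the log2 scale (limma, adjusted p = 6.66e-14). The KO set A values lie near the array medians, 1 of them below, so background limits the size of this difference. On chow it differed by -6.20 ± 0.21. The RefSeq promoter table places this locus on X and on Y. The 4 tested Y-linked genes had a mean log2 level of 6.83 to 6.95 in WT Covi-Ox and 6.79 to 6.93 in KO set A, 0 of them called. On chow that mean was 6.91 to 6.95 in WT control and 6.16 to 6.24 in KO control. Xist was below the array median on all 6 arrays. Mid1 is an E3 ubiquitin ligase that binds microtubules, and its gene crosses the pseudoautosomal boundary of the mouse X chromosome in C57BL/6 mice. It lay at 352, 365 and 462 in WT Covi-Ox and at 41.9, 37.9 and 48.9 in KO set A, a fall of 9.15-fold (-3.19 ± 0.21, limma, adjusted p = 1.34e-08). On chow the Mid1 difference was -2.60 ± 0.26.

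Rasgrf2 on chromosome 13 encodes an exchange factor for Ras and Rac. It rose from 52.5, 34.8 and 45.5 in WT Covi-Ox to 231, 290 and 237 in KO set A, a difference of 2.53 ± 0.20 (limma, adjusted p = 2.57e-07), and differed by 2.84 ± 0.25 on chow. The lowest knockout value was far above the highest WT value. Nnt, on the same chromosome, encodes the mitochondrial transhydrogenase that makes NADPH from NADH, and is known to be disrupted in the C57BL/6J substrain. Its intensity was 84.3, 81.3 and 83.5 in WT Covi-Ox against 158, 138 and 149 in KO set A, which rose by 0.84 ± 0.13 (limma, adjusted p = 0.00401). The chow difference of Nnt was 0.91 ± 0.16. Whether the WT and knockout mice share a substrain is not in the labels.

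Lrmda, a leucine-rich protein named for melanocyte differentiation, fell 4.45-fold in KO set A. Its intensity was 151, 135 and 118 in WT Covi-Ox against 43.7, 23.1 and 27.2 (-2.15 ± 0.26, limma, adjusted p = 2.54e-04). On 2 of the 3 KO set A arrays Lrmda was below the array median. The chow difference was -1.89 ± 0.32.

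Ctnnal1 (alpha-catulin, a relative of the adhesion protein alpha-catenin) fell by 1.00 ± 0.15 on the log2 scale, from 97.4 to 120 in WT Covi-Ox to 41.4 to 62.9 in KO set A (limma, adjusted p = 0.00301). Csmd3, a large membrane protein with CUB and Sushi domains, rose by 0.79 ± 0.12, from 484 to 540 up to 815 to 1038 (limma, adjusted p = 0.00382). Each of its 7 probe sets was higher in KO set A, by 0.58 to 1.00, with no overlap of the groups. On chow the differences were -0.71 ± 0.18 for Ctnnal1 and 0.31 ± 0.15 for Csmd3, neither called (limma, adjusted p = 0.232 and 0.465).

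**Figure D2:**
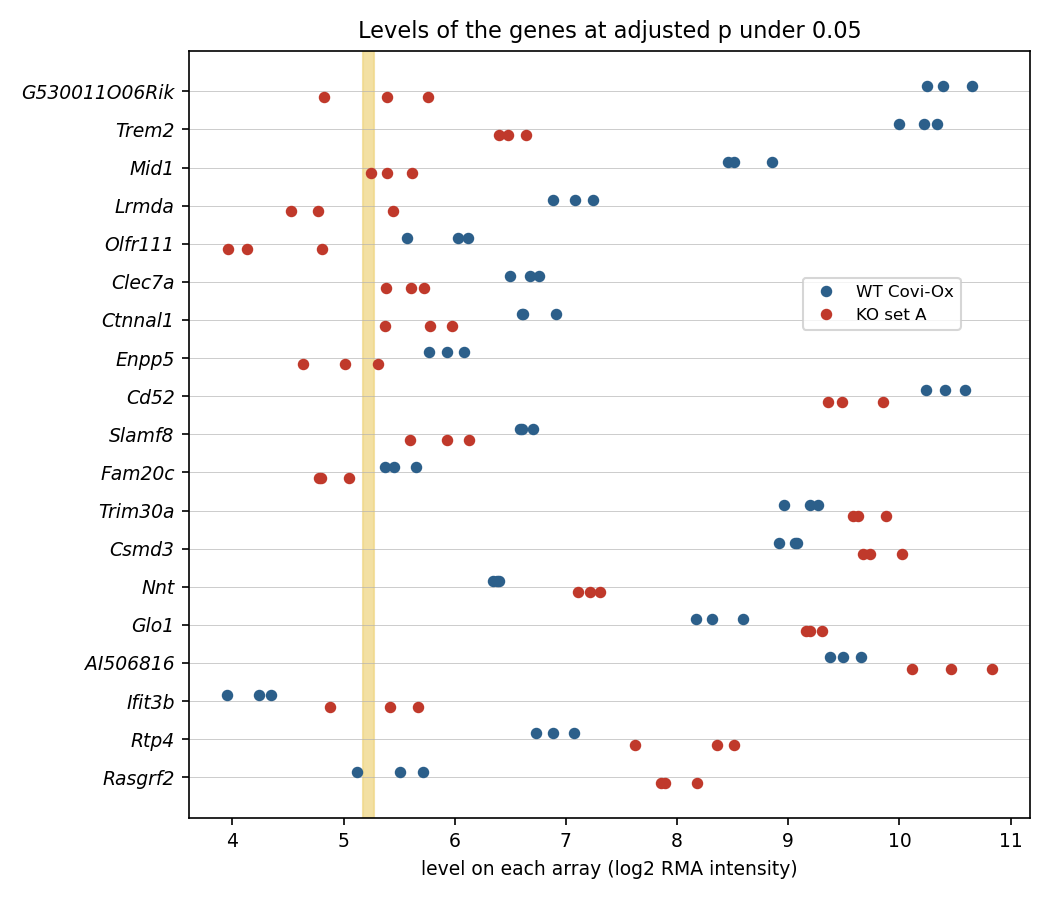
Level of the 19 called genes (log2 RMA intensity) on each of the 3 WT Covi-Ox arrays (blue) and the 3 KO set A arrays (red); the vertical band spans the array medians, 5.17 to 5.27. The groups do not overlap for any of the 19 genes, and several genes, among them Olfr111, Fam20c and Ifit3b, lie near or below the band in one group.

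Clec7a, a late DAM gene, and Cd52, Slamf8 and Fam20c, which are in none of the lists, were also called lower in KO set A. Clec7a (dectin-1, a receptor for beta-glucans) stood at 90.6, 108 and 102 in WT Covi-Ox and at 41.6, 52.7 and 48.8 in KO set A. It fell 2.11-fold (-1.08 ± 0.18, limma, adjusted p = 0.0125). The KO set A values lay not far above the array medians of 36.1 to 38.6, which limits the size of this difference. The call was lost without WT Covi-Ox replicate 2 or 3, or without KO set A replicate 1 or 3, with a highest adjusted p of 0.115. On chow the Clec7a difference was -0.49 ± 0.23.

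Cd52, a GPI-anchored glycoprotein of leukocytes, was one of the more abundant called genes. It lay at 1361, 1209 and 1542 in WT Covi-Ox and at 924, 656 and 717 in KO set A, and fell by 0.85 ± 0.16 on the log2 scale (limma, adjusted p = 0.0222). Slamf8, a SLAM family receptor of myeloid cells, was at 104, 96.3 and 97.2 against 61.0, 48.4 and 70.1, and fell by 0.74 ± 0.15 (limma, adjusted p = 0.0488). Fam20c, a kinase of secreted proteins, was near the array medians in both groups, at 43.7, 41.4 and 50.4 against 27.8, 27.5 and 33.1, and fell by 0.62 ± 0.12 (limma, adjusted p = 0.0279). The call of Cd52 was lost without WT Covi-Ox replicate 1 or 3 or KO set A replicate 2 or 3, and that of Fam20c without WT Covi-Ox replicate 1 or 3 or KO set A replicate 1 or 2, with highest adjusted p of 0.178 and 0.243 (limma). Slamf8 kept its call only without KO set A replicate 3, and its highest adjusted p in the other fits was 0.325. Clec7a, Cd52, Slamf8 and Fam20c are all genes that cuprizone raised in WT microglia of this study, by 2.83, 1.19, 0.70 and 2.58 (log2, WT cuprizone minus WT control).

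Of the 23 late DAM genes listed, 21 were tested. KO set A was below WT Covi-Ox for 19 of them, with a median of -0.30 against -0.003 for all genes, and 1 of the 21 was called (Clec7a). At an unadjusted p under 0.05, 8 of 21 were lower and 0 higher, beside 2.81% lower over all genes. In 10 of the 21 the groups did not overlap with KO set A lower, and in 1, Ch25h, with KO set A higher, beside 7.26% and 5.38% of all genes. The mean log2 level of the 21 genes was 7.59 to 7.72 in WT Covi-Ox and 7.22 to 7.33 in KO set A, so the groups were apart on this mean too. The median was -0.195 without KO set A replicate 3 and -0.213 without WT Covi-Ox replicate 3, and 0 of the 21 were called in these fits or without WT Covi-Ox replicate 2. With only the 6 arrays, or with array weights, 4 were called lower.

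Itgax (CD11c, an integrin chain) was at 52.1, 59.3 and 42.4 in WT Covi-Ox and 30.4, 21.3 and 20.4 in KO set A, where all 3 values were below the array medians (-1.11 ± 0.23, limma, adjusted p = 0.0523). Csf1, a growth factor of macrophages, was at 268, 355 and 357 against 182, 174 and 150 (-0.94 ± 0.20, limma, adjusted p = 0.078). Cst7 (cystatin F, an inhibitor of lysosomal proteases) was at 161, 125 and 222 against 77.5, 78.1 and 62.9 (-1.19 ± 0.36, limma, adjusted p = 0.589). The groups did not overlap for any of the 3 genes. Plaur, the urokinase receptor, at -0.88 ± 0.18, and Lag3, an inhibitory receptor, at -0.56 ± 0.11, which are outside the list, lay at the same adjusted p of 0.0523 as Itgax.

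Lpl (lipoprotein lipase) was -0.64 ± 0.27, with overlapping groups, and Axl, a receptor for dying cells, was -0.42 ± 0.22. Gpnmb was -0.10 ± 0.30 and Mmp12, a metalloelastase outside the list, -0.38 ± 0.13, both below the array medians on all 6 arrays. None of these 4 genes was called.

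Of 9 early DAM genes tested, 7 were lower in KO set A, 3 of them at an unadjusted p under 0.05 (2.81% of all genes) and 0 called, with a median of -0.19. Apoe, the main apolipoprotein of the brain, stood at 4295, 4018 and 4321 in WT Covi-Ox and at 2790, 3731 and 3846 in KO set A (-0.30 ± 0.13, limma, adjusted p = 0.946). Of the 23 homeostatic genes tested, 18 were higher in KO set A with a median of 0.059, and 0 were called. P2ry12, Tmem119 and Cx3cr1, receptors and surface proteins of resting microglia, differed by 0.060 ± 0.081, 0.10 ± 0.091 and 0.045 ± 0.088.

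**Figure D3:**
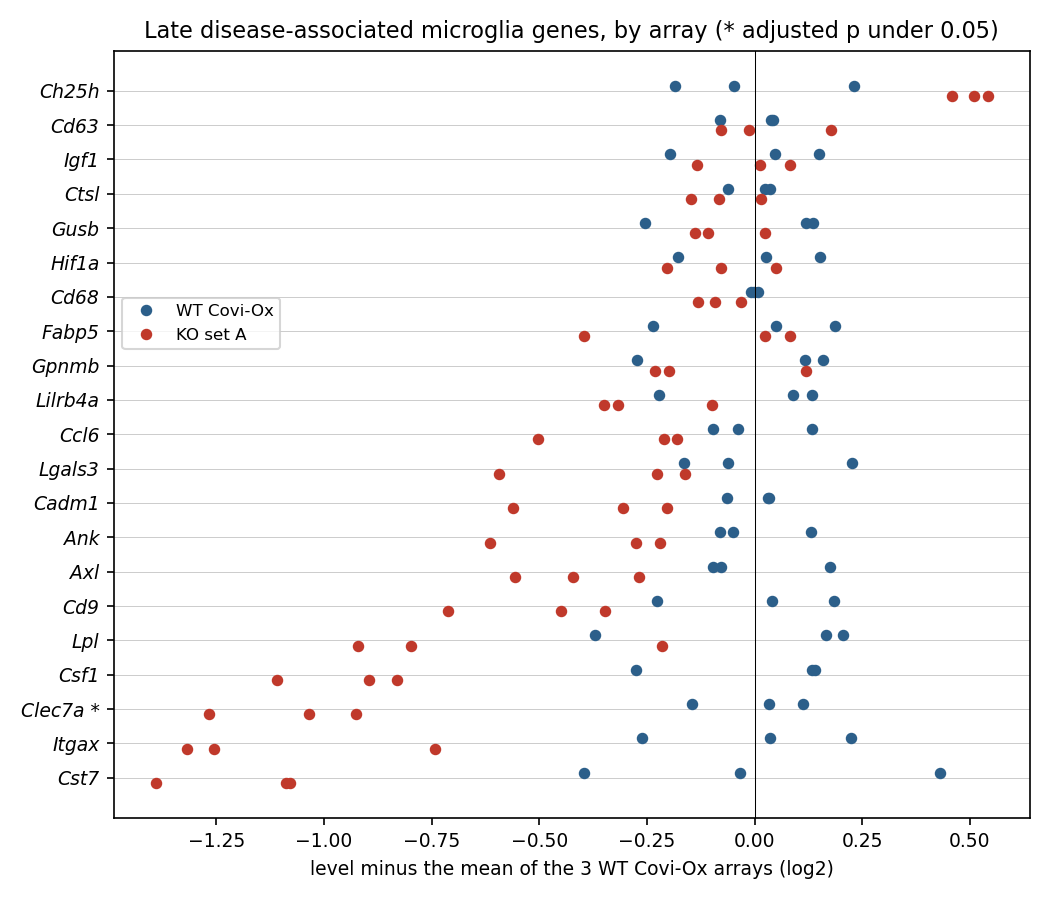
Level of the 21 late DAM genes on each array, as log2 distance from the mean of the 3 WT Covi-Ox arrays (blue, WT Covi-Ox; red, KO set A), ordered by the difference. The red points of Cst7, Itgax, Clec7a and Csf1 lie wholly to the left of the blue ones, while Gpnmb, Fabp5 and Igf1 overlap.

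The 213 genes called higher in WT cuprizone than in WT control were chosen by differences between arrays of neither group. Their p-values used the spread of all 22 arrays, these 6 included, so the set is not fully independent. Of the 213, 144 were lower in KO set A than in WT Covi-Ox and 69 higher, with a median of -0.11. The 7 called among them were Clec7a, Cd52, Fam20c, Olfr111 and Slamf8 (lower) and Rtp4 and Trim30a (higher). The called share of all genes was 0.161%. At an unadjusted p under 0.05, 37 were lower and 13 higher, beside 2.81% and 2.09% of all genes. Of the 83 genes that cuprizone lowered in WT, 54 were higher in KO set A and 29 lower, with a median of 0.037. At an unadjusted p under 0.05, 8 were higher and 2 lower, beside 2.09% and 2.81% of all genes. The 1 called among them was Csmd3 (higher).

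Interferon response genes had higher levels in KO set A, with 2 called. Interferons are antiviral cytokines, and many genes that they induce, such as the Ifit and Oas families, carry an interferon-stimulated response element (ISRE) before their start. Of 29 listed genes 25 had a probe set and 24 were tested, of which Rtp4 and Trim30a were called. At an unadjusted p under 0.05, 12 of 24 were higher, these 2 included, and 0 lower, beside 2.09% of all genes. KO set A was higher in 23 of 24, beside 48.9% of all genes, with a median of 0.42 against -0.003 for all genes. In 13 of 24 the groups did not overlap, all with KO set A higher, beside 5.38% of all genes.

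Rtp4, an interferon-induced chaperone of membrane receptors, lay at 106, 134 and 118 in WT Covi-Ox and at 365, 198 and 329 in KO set A. It rose 2.42-fold (1.27 ± 0.25, limma, adjusted p = 0.0323). Trim30a, an interferon-induced TRIM protein, was at 498, 585 and 615 against 944, 792 and 767 and rose 1.47-fold (0.56 ± 0.10, limma, adjusted p = 0.0125). Ifit3b, of the family that binds foreign RNA, was outside the list; it rose from 15.5, 20.4 and 18.9 to 50.7, 29.5 and 42.7 (1.14 ± 0.22, limma, adjusted p = 0.0279). Its WT values were all below the array medians.

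Near-identical copies limit these names, because Ifit3b and Ifit3, and Trim30a and its neighbours, share sequence that a probe set may not separate. Ifit3 was at 122, 180 and 165 in WT Covi-Ox and 363, 188 and 345 in KO set A (0.90 ± 0.23, limma, adjusted p = 0.241). KO set A replicate 2 was the lowest of its group for Rtp4, Ifit3b and Ifit3. The groups still did not overlap for any of these genes.

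Among the uncalled members, Ifi27l2a lay at 426, 268 and 444 against 869, 599 and 631 (0.90 ± 0.31), and Oas2 at 38.7, 43.5 and 39.1 against 55.6, 47.3 and 62.1 (0.44 ± 0.11). Usp18, which removes ISG15 and restrains the interferon receptor, was at 81.4, 58.9 and 80.2 against 162, 84.9 and 90.8 (0.57 ± 0.23), with KO set A replicate 1 far above the others. The smallest differences were of Cxcl10 (0.042 ± 0.44) and Oasl1 (-0.13 ± 0.14), both with overlapping groups.

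The list's median was 0.30 without KO set A replicate 1, when 0 members were called, and 0.51 without KO set A replicate 2, when 3 were. Without WT Covi-Ox replicate 1 it was 0.40 with 0 called. Rtp4 and Ifit3b kept their calls only without KO set A replicate 2, with highest adjusted p of 0.255 and 0.220 in the other 5 fits (limma). That of Trim30a was lost without WT Covi-Ox replicate 1 and without KO set A replicate 1, with a highest adjusted p of 0.117.

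**Figure D4:**
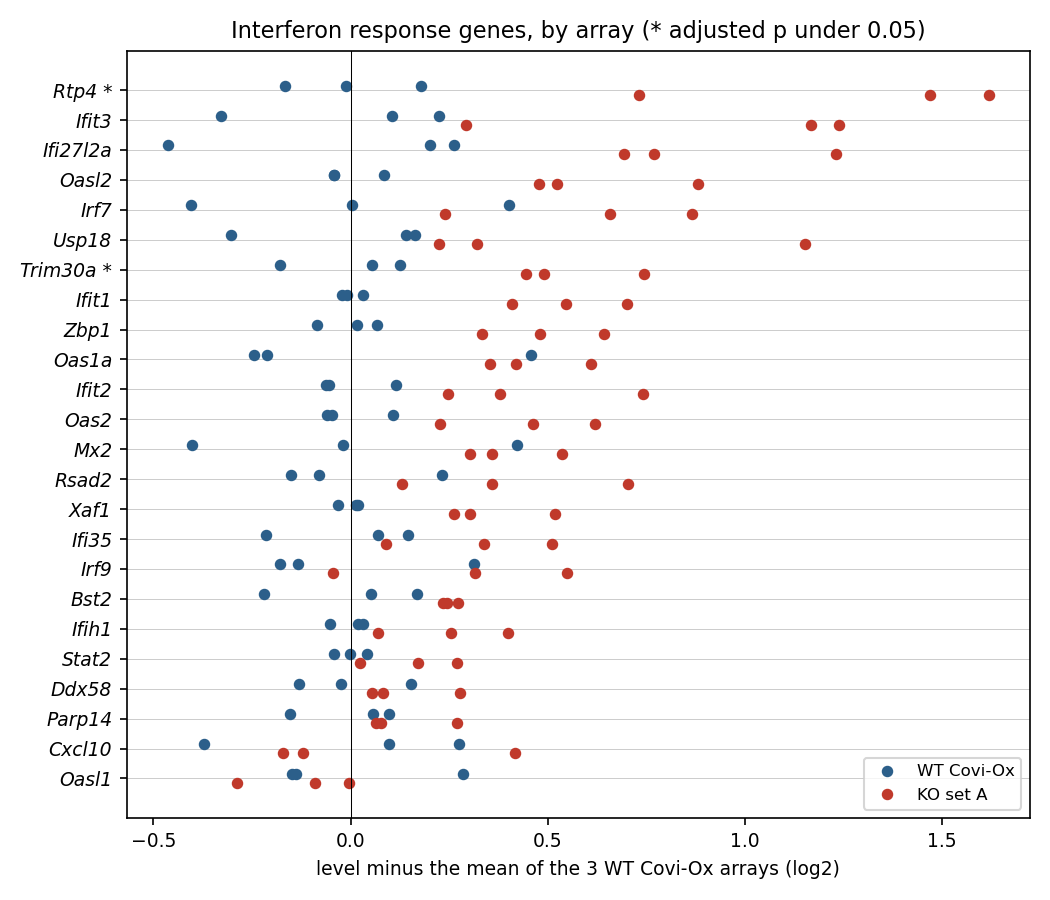
Level of the 24 interferon response genes on each array, as log2 distance from the mean of the 3 WT Covi-Ox arrays (blue, WT Covi-Ox; red, KO set A), ordered by the difference. The red points lie mostly to the right, with the called genes Rtp4 at 1.27 and Trim30a at 0.56, while Cxcl10 and Oasl1 overlap.

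The promoters of these genes were searched for the core of the ISRE, GAAANNGAAA or TTTCNNTTTC on the other strand, in the 250 bases before each RefSeq start of GRCm38.p6. The core was in 2.98% of 32851 windows and in 3.17% of the 9470 tested genes with a window. It was in 8 of the 17 interferon response genes with a window (47.1%), in 3 of the 14 called genes with one (Ifit3b, Trim30a and Slamf8, which fell) and in 0 of 17 late DAM genes. A match describes the sequence and shows no binding, and members of 1 family share sequence. The windows of the called Ifit3b (chr19:34607707-34607956, plus strand) and Trim30a (chr7:104465194-104465443, minus strand, the first of 2 starts; the other has no match) are shown because they rose, with matches in capitals, followed by the sites of Ifit3, Oas1a, Rsad2 and Slamf8 in shorter stretches.
Ifit3b: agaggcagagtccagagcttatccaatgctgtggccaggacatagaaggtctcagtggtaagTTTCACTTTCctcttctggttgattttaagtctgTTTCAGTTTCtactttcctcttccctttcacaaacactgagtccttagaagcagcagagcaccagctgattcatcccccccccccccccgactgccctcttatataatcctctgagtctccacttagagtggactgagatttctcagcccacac
Trim30a: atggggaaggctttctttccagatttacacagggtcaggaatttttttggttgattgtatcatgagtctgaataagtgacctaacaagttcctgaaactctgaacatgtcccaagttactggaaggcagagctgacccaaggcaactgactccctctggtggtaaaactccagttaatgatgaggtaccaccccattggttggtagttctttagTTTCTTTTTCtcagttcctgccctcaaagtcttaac
Ifit3: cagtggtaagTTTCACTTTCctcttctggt
Oas1a: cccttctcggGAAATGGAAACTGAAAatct
Rsad2: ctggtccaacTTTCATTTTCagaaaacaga
Slamf8: cccgggatgcTTTCGCTTTCaagac
The stretch around the match of Ifit3 is the same as the one around the first match of Ifit3b, while that of Oas1a holds 2 overlapping matches. The matches begin 188 bases before the start in Ifit3b, 156 in Ifit3, 120 in Rsad2, 36 in Trim30a, 20 in Oas1a and 15 in Slamf8. Rsad2 (viperin, an antiviral enzyme) differed by 0.40 ± 0.20 and Oas1a (a sensor of double-stranded RNA) by 0.46 ± 0.28, neither called. Rtp4, with the largest rise of the interferon response genes, has no window in the table.

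Markers of neutrophils and monocytes also had higher values in KO set A than in WT Covi-Ox. The 2 tested markers of T and NK cells differed by 0.029 and 0.073, and the 1 tested marker of B cells by 0.22. Of 8 neutrophil markers 6 were tested, all with a value above 0 (48.9% of all genes), with a median of 0.25, and 0 were called. At an unadjusted p under 0.05, 2 of the 6 were higher (2.09% of all genes). The groups did not overlap for 2, S100a8 and S100a9 (5.38% of all genes). S100a8 was at 27.2, 23.7 and 14.7 in WT Covi-Ox and 67.2, 99.7 and 67.6 in KO set A (1.86 ± 0.63, limma, adjusted p = 0.721), and S100a9 at 79.3, 29.9 and 24.8 against 141, 135 and 92.1 (1.63 ± 0.64). All 3 WT Covi-Ox values of S100a8 were below the array medians, as were 2 of those of S100a9, so the size of these differences is not well measured. S100a8 was 1379 and 1300 on WT control and 835 and 760 on KO control. The defining neutrophil markers Ly6g and Ltf were below the array median on all 6 arrays. The mean log2 level of the 6 tested was 4.57 to 5.08 in WT Covi-Ox and 5.41 to 5.60 in KO set A. Both groups were below WT control, at 7.76 to 7.87, and KO control, at 7.20 to 7.33.

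The 3 tested monocyte markers were higher too, with a median of 0.47. Plac8 was at 21.0, 20.2 and 18.1 in WT Covi-Ox and 86.3, 40.6 and 64.9 in KO set A (1.63 ± 0.34, limma, adjusted p = 0.0686), with all 3 WT Covi-Ox values below the array medians. Ccr2, a chemokine receptor, differed by 0.47 ± 0.19. Chil3 was below the array median on all 6 arrays. The mean log2 level of the 3 markers was 4.67 to 4.72 in WT Covi-Ox, the lowest of all groups, against 5.28 to 5.58 in KO set A. It was 5.74 to 5.87 in WT control and 4.86 to 5.38 in KO control. The part of these cells in the interferon and other differences was not tested.

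Lists of vitamin E handling and redox genes held no call apart from Nnt. The 11 tocopherol handling genes tested had a median of -0.070, led by Lpl and by Abca1, a lipid exporter, at -0.26 ± 0.11. The 20 antioxidant targets of NRF2 tested had a median of -0.015, and Hmox1 (heme oxygenase 1) differed by 0.16 ± 0.25. Nqo1, another NRF2 target, was below the array median on all 6 arrays. Chaperone genes were higher in 16 of 17, beside 48.9% of all genes, with a median of 0.23, 2 at an unadjusted p under 0.05 (2.09% of all genes) and 0 called. Without KO set A replicate 1 their median was 0.15, with 0 at such a p. Hsph1 (heat shock protein 105) lay at 97.0, 149 and 99.7 against 216, 150 and 184 (0.68 ± 0.28). Cell cycle genes were higher in 15 of 17, with a median of 0.19, or 0.11 without KO set A replicate 1, and 0 called. Top2a, a topoisomerase of dividing cells, was 0.99 ± 0.26 (limma, adjusted p = 0.29). Glycolysis genes were lower in 15 of 16 with a median of -0.11, and the 37 lysosomal genes had a median of -0.064. MHC class II genes were lower in 6 of 8, led by H2-DMa at -0.49 ± 0.14 (limma, adjusted p = 0.402), with 0 called. Beyond these lists, the called list members were Trem2, in the Trem cluster, and Lrmda, in a list of pigment genes.

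Chromosome 17 carries Trem2 and held 4 of the 19 called genes, 0.659% of its 607 tested genes, beside 0.161% of all genes. Both shares include Trem2 itself, whose call was given by the genotype. Of the 100 tested genes nearest to Trem2, 50 on either side, 0 were called by limma and 9 had an unadjusted p under 0.05. Over the other 506 genes of the chromosome 7.9% had such a p, and over the other chromosomes 4.74%. The called genes on chromosome 17 beside Trem2 were Olfr111, Enpp5 and Glo1, which lay 66, 60 and 230 tested genes from it on the same side.

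Olfr111, an olfactory receptor gene, was at 69.5, 47.4 and 65.3 in WT Covi-Ox and 15.5, 27.9 and 17.6 in KO set A, where all values were below the array medians (-1.61 ± 0.27, limma, adjusted p = 0.0125). Enpp5, of the ectonucleotide pyrophosphatase family, was at 61.0, 54.6 and 67.9 against 32.3, 39.7 and 24.9 (-0.94 ± 0.17, limma, adjusted p = 0.0183). Glo1, glyoxalase 1, which detoxifies methylglyoxal and lies in a segment known to vary in copy number among inbred strains, rose from 386, 319 and 288 to 631, 571 and 587 (0.86 ± 0.15, limma, adjusted p = 0.0194).

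A second probe set of Glo1 differed by 1.01. On chow the differences were -0.88 ± 0.33, -0.84 ± 0.21 and 0.89 ± 0.19 for Olfr111, Enpp5 and Glo1, of the same sign and not called. The calls of Olfr111 and Enpp5 were lost without replicate 1 or 3 of either group, and Glo1 kept its call only without WT Covi-Ox replicate 1, with highest adjusted p of 0.115, 0.173 and 0.175 (limma). Of the neighbours in the Trem cluster, Treml4 was 0.75 ± 0.19 (limma, adjusted p = 0.27) and Treml2 -0.43 ± 0.23, while Trem1 was below the array median on all 6 arrays. AI506816 differed by 0.96 ± 0.18 (limma, adjusted p = 0.0212), at 719, 805 and 664 against 1414, 1111 and 1819, and also lost its call without replicate 1 or 3 of either group (highest adjusted p = 0.189).

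**Figure D5:**
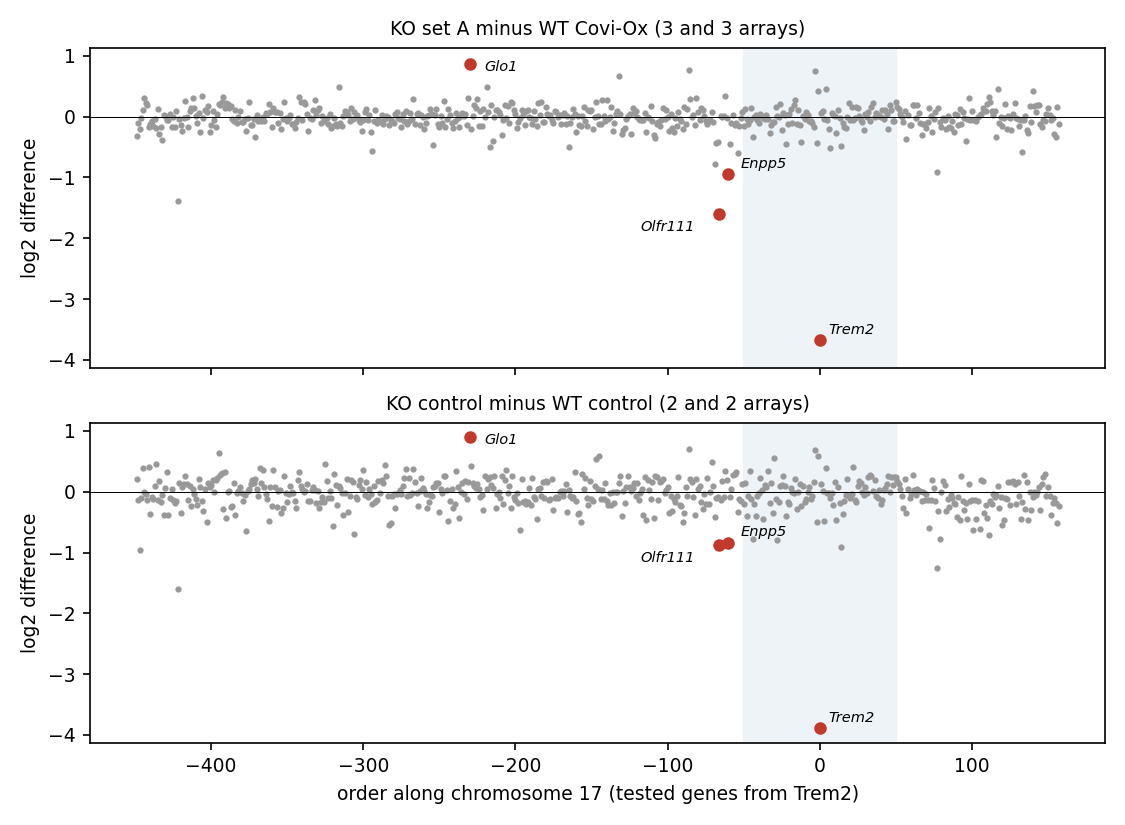
Difference between genotypes (log2) for each tested gene of chromosome 17 in its order from Trem2, for KO set A minus WT Covi-Ox (upper panel, 3 and 3 arrays) and KO control minus WT control (lower panel, 2 and 2 arrays); red points mark the 4 genes called in the upper comparison and the shaded band the 50 tested genes on either side of Trem2. Trem2 is the lowest point in both panels, at -3.68 and -3.89, and Olfr111, Enpp5 and Glo1 lie outside the band on one side.

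The difference between KO set A and WT Covi-Ox was compared directly with that between the genotypes on chow, as the difference of the 2 differences. Only under the descriptions is this a comparison of Covi-Ox with chow. In limma 0 of 11830 genes were called (0%; 754 at an unadjusted p under 0.05), and the lowest adjusted p was 0.199, that of Eif2s3y, so no gene passed. The interferon response list had a median of -0.14 on chow, where 4 of 24 were higher, and of 0.42 here. Ifit3 moved from -0.67 on chow to 0.90, a difference of 1.57 ± 0.36 (limma, adjusted p = 0.584), and Rtp4 from -0.025 to 1.27, a difference of 1.30 ± 0.39 (adjusted p = 0.773). The late DAM list had medians of -0.19 and -0.30. The 2 arrays of KO control were less alike than replicates elsewhere, with a standard deviation of their log2 difference of 0.388. Without KO control replicate 1 the count of calls was 127, with KO control replicate 2 then alone in its group.

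KO set B gives the values under the other reading of the labels. It shares the 3 WT Covi-Ox arrays with KO set A, so the 2 comparisons are not independent. KO set B against WT Covi-Ox gave 29 calls (0.245%), 15 higher and 14 lower. The interferon response median was 0.49 for KO set B and 0.42 for KO set A. The late DAM median was 0.11 for KO set B and -0.30 for KO set A, with a mean log2 level of the list of 7.75 to 7.80 against 7.22 to 7.33. On the same scale WT control was at 7.42 to 7.46 and WT Covi-Ox at 7.59 to 7.72. KO control was at 7.17 to 7.25, KO cuprizone at 7.57 to 7.71 and WT fed both additives at 9.69 to 9.77. For the interferon response list this mean was 6.87 to 7.26 in KO set A and 6.94 to 7.26 in KO set B. It was 6.45 to 6.50 in KO control, 6.76 to 6.95 in KO cuprizone and 7.56 to 7.57 in WT fed both additives. In WT control it was 6.65 to 6.69 and in WT Covi-Ox 6.61 to 6.64. No array was moved between groups on these levels.

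Compared with each other, KO set A and KO set B differed in 1 called gene, Cst7, while 1041 genes (8.8%) had an unadjusted p under 0.05. Cst7 lay at 77.5, 78.1 and 62.9 in KO set A and at 372, 450 and 406 in KO set B, a difference of -2.49 ± 0.36 (limma, adjusted p = 0.0142, 0.00845% of genes called). Cst7 was at 73.5 and 55.6 in KO control. Clec7a was 47.5 in KO set A and 99.2 in KO set B (group means, -1.06 ± 0.18, limma, adjusted p = 0.066), and 50.6 in KO control and 99.2 in KO cuprizone.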

How the data were processed

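Microglia sorted as triple positive for CD11b, CD45 and F4/80 were measured on Affymetrix MoGene 1.0 ST arrays, and all 22 arrays of the series, in 8 groups of 2 or 3, entered the model. The authors made the deposited intensity values, which are linear, with RMA, per the submitters' processing notes. The RMA version is not given in the sources used here. Since RMA equalises the distributions of the arrays, total RNA per cell is not visible in these values.

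The table held 28098 probe sets with 2 missing cells, and every column of values was mapped to a sample. The log2 of the deposited values was taken here. The platform's probe table names 1 gene for 21640 probe sets; 1321 with several and 5137 unlisted ones were left out of the gene tests. Each gene was represented by its probe set with the highest mean, and 11830 of 19936 genes lay above the 50th percentile of an array on at least 2 arrays and were tested.

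Tests were two-sided and used limma 3.58.1 under R 4.3.3, in 1 model of the 8 group means with 14 residual degrees of freedom and Benjamini-Hochberg adjustment over all genes tested. The spread is shared with arrays outside a comparison. The median standard error of a difference was 0.136 (log2), and the small number of arrays limits the precision. The workflow was tested on simulated data.

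Named are, among genes with no overlap between the groups, at most 12 called ones in each direction by size, then those with the smallest p to fill up, then up to 4 called members of each gene list or its member with the smallest p, then a set list (Trem2, Tyrobp, Apoe, Cst7 and others). Clones and unnamed loci are left out. Members of lists named to show their range were added. The samples compared, the gene lists, the naming rule and the tests were chosen with earlier results of these data known. Lists are described by counts and medians, with no test of their own.

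Deviations of arrays with the same replicate number in KO set A and WT Covi-Ox correlated at -0.053, -0.040 and 0.013. Arrays with unlike numbers correlated at -0.029 to 0.068. The numbers were not used as pairs in the main fit, and whether they mark a shared batch was not tested. Promoter windows are RefSeq's of GRCm38.p6. The build of the array's design was not found in the labels, so no gene coordinates are printed from it, and that annotation served for gene order along chromosomes.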

Additional observations from a re-analysis of the deposited data

Results flagged for a closer look

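The difference between the comparisons of KO set A and KO set B with WT Covi-Ox passed the threshold for 1 gene, Cst7, at -2.49 ± 0.36 (log2, KO set A minus KO set B, 3 and 3 arrays, limma, adjusted p = 0.0142). No array of either set overlapped with the other. The 2 sets are those with contradictory labels.

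Probe sets without a single listed gene were left out of the gene tests and tested apart. Of 2963 such probe sets, 5 were called and 138 had an unadjusted p under 0.05. These shares are close to those of the genes, 19 and 580 of 11830. All 5 were higher in KO set A, with no overlap between the groups. Probe set 10468877 was higher by 1.95 and probe set 10586076 by 2.57 (log2). The other 3 were higher by 2.21, 1.47 and 0.80. None is listed in the platform's probe table, so they are given without a gene.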

How the results depend on the processing

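For KO set A against WT Covi-Ox the count of called genes (19) was 18 to 25 under no filter, the 75th percentile filter, quantile or median scaling, the mean of probe sets, limma's trend and robust options, or only the 6 arrays, of which the last shared 13 genes. It was 10 with a change of at least 2-fold, 8 at an adjusted p under 0.01, 36 with array weights and 32 without 3 cuprizone arrays low in immediate-early genes, and 9 to 18 without 1 array. With the replicate block it was 19, of which 17 were shared, and the block changed the counts of the other comparisons to 0, 7, 19 and 3. The difference of the 2 genotype differences (0) gave 2 with only the arrays compared, 1 without the 3 low arrays and 0 to 127 without 1 array. The chow comparison (8) gave 5 at an adjusted p under 0.01, 5 with only its arrays, 5 with array weights and 5 to 701 without 1 array. The highest counts of both came without KO control replicate 1, with the lone array assumed to vary like the other groups. KO set B against WT Covi-Ox (29) gave 16 at 2-fold, 12 at an adjusted p under 0.01, 19 with the replicate block, 64 with only its arrays, 15 with no filter, 174 with array weights, 111 without the 3 low arrays and 10 to 14 without 1 array. Median centring gave it 18 and moved the share of higher calls from 51.7% to 27.8%. KO set A against KO set B (1) gave 0 at an adjusted p under 0.01, 3 with the replicate block, 27 with only its arrays, 13 with the 75th percentile filter, 2 with quantile normalization, 10 with trend and robust options, 91 with array weights, 72 without the 3 low arrays and 0 to 8 without 1 array. The causes were not tested.

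Over the named genes and their alternatives, 913 values kept direction and call, 57 lost a call, 35 gained one and 6 turned. The values that turned were small and never called: Csf1r (-0.0054) was 0.030 with quantile normalization and -0.024 to 0.012 without 1 array, Cd8a ranged from -0.026 to 0.22, Eif2s3y from -0.0014 to 0.11 and Uty from -0.14 to 0.047 without 1 array. Several genes lay near the array medians of 36.1 to 38.6 in at least 1 group (Lrmda, Olfr111, Enpp5, Fam20c, Ifit3b, Itgax, Clec7a, Ctnnal1, Mid1, G530011O06Rik, Rasgrf2, Plac8, S100a8). In that group they have little signal over background, which limits the size of a difference that the arrays can show.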
